A study of Mus musculus with 39 samples.

Results

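Gpnmb and 7 further genes of activated phagocytes (Lgals3, Trem2, Marco, Cd14, Cd52, Lyz1 and Lyz2) were followed through testis development in the mouse and through organ culture of the same tissue. A probe was included when the platform annotation gave it a member's symbol and its detection p was below 0.01 on 3 or more arrays. The array carried 16 probes for the 8 genes, and 12 of them met the rule, out of 23665 probes kept of 45281 on the array. They stand for 8 of 12518 genes with a kept probe. Gpnmb kept 2 probes, Lyz1 3 and Lyz2 2, and each of the other 5 genes kept 1.

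Total RNA of whole testes was hybridised to 1-colour Illumina bead arrays. The cultured groups were testes taken at 7.5 days post partum (dpp) and kept in culture for 2, 4, 6, 7, 9 or 14 days, with 3 arrays each, so that their nominal ages were 9.5, 11.5, 13.5, 14.5, 16.5 and 21.5 dpp. The in vivo groups were uncultured testes of those 6 ages and of 7.5 dpp, the age at which culture began, with 3 arrays each except 2 at 13.5 dpp. All groups are of untreated testis as far as the labels go. The sources used here name neither the mouse strain nor the number of animals behind an array, so the p-values measure the spread between these samples, which may be technical.

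Macrophages of the testis live between the tubules and on the tubule wall, and they clear debris and support the neighbouring steroid-producing cells. On meeting dying cells or lipid, macrophages in many tissues switch on a programme that includes the transmembrane glycoprotein Gpnmb, the galectin Lgals3 and the lipid-sensing receptor Trem2, together with lysosomal enzymes. Cd14 and Marco recognise bacterial products and particles, Cd52 is a small glycolipid-anchored surface protein of leukocytes that the epididymis also makes, and Lyz1 and Lyz2 encode the secreted antibacterial enzyme lysozyme, with Lyz2 the form of myeloid cells and Lyz1 that of intestinal Paneth cells.

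Each array detected 35.6% to 43.9% of its probes, and the mean raw signal ran between 368 and 789, lowest in the culture day 7 group. Levels below are normalized log2 signals, on which a difference of 1 is a 2-fold change; a level is compared only with levels of the same probe. Calls required a 2-fold difference together with an adjusted p under 0.05 (limma, Benjamini-Hochberg over all probes).

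The members were selected partly by their signal, and for 5 of the 12 probes this matters to every comparison of culture with uncultured testis. Both Gpnmb probes, the Marco probe and 2 Lyz1 probes (ILMN_1247933 and ILMN_2736867) were detected on 0 of 20 in vivo arrays, so only culture arrays brought them through the rule. Their culture levels against in vivo levels are therefore given as description, without p. The other 7 probes, of 6 genes, were detected on 13 to 20 of the 20 in vivo arrays and on 14 to 18 of the 18 culture arrays. Lyz1 probe ILMN_2736867, detected on 3 arrays, lay just inside the rule, and Gpnmb probe ILMN_1236420, detected on 2, just outside it.

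Gpnmb was detected on all 18 culture arrays and on none of the 20 in vivo arrays. Its brighter probe, ILMN_2648669, lay at 7.77, 8.42 and 8.10 after 2 days of culture and at 8.85, 9.43 and 12.00 after 4 days. It lay at 9.90, 11.35 and 11.10 on day 6, at 11.30, 11.71 and 10.40 on day 7, at 12.02, 12.25 and 9.77 on day 9, and at 11.70, 11.72 and 12.48 on day 14. The in vivo arrays, all below detection, had a lowest value of 4.53, a median of 4.76 and a highest of 5.94. The lowest culture array thus stood above the highest in vivo array, and no culture group overlapped an in vivo group.

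Because the in vivo signal was not above background, the size of the difference has only a lower bound, the culture mean against the dimmest detected probe of the in vivo arrays. Culture was at least 5.47-fold higher than in vivo testis on day 2, at least 24.7-fold on day 4 and at least 41.7-fold on day 6. The bounds were at least 44.9-fold on day 7, 64.9-fold on day 9 and 92.6-fold on day 14. They hold for the normalization used here: with the authors' own log2 values the day 2 difference was 0.98 (log2). The day 2 arrays lay below those of every later culture time. From day 4 on, the ranges of neighbouring culture times overlapped, so that the order of their means (10.09 on day 4, 10.78 on day 6, 11.14 on day 7, 11.35 on day 9 and 11.97 on day 14) is not separated by the spread between arrays.

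Within culture, the Gpnmb signal rose by 3.04 ± 0.56 (log2, SE) at day 7 against day 2 (adjusted p = 0.000318) and by 3.87 ± 0.56 at day 14 against day 2 (adjusted p = 5.43e-06). Day 14 differed from day 7 by 0.83 ± 0.56 (adjusted p = 0.285), within the spread; with median centring, under which the median of all probes shifted by 0.45 in this contrast, it was 1.45 (adjusted p = 0.0304). The dimmer probe, ILMN_2614655, was detected on no day 2 array and on every array of days 6, 7 and 14. It lay at 8.17, 8.37 and 9.08 on day 14, at least 8.63-fold above in vivo 21.5 dpp, and differed from day 7 by 1.73 ± 0.51 (adjusted p = 0.0131). That call was lost without culture day 14 replicate 3 (1.46, adjusted p = 0.0786) or culture day 7 replicate 3 (1.30, adjusted p = 0.0962). Both probes were above background in culture alone, the dimmer one later.

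The bases before the Gpnmb start are shown because this gene had the largest lower bound of the 5 probes without in vivo detection. RefSeq promoter windows were at hand for 6 of the 8 members (Gpnmb, Lgals3, Trem2, Marco, Lyz1 and Lyz2). The 200 bases before the Gpnmb start, at chr6:49036318-49036517 on the plus strand of GRCm38.p6, read as follows, with the E-box core CANNTG in capitals.
Gpnmb: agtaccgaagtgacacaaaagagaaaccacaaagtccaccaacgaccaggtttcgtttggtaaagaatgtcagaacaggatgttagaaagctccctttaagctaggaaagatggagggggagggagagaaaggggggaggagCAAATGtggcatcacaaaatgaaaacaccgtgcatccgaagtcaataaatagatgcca

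E-boxes are the letters that MITF, TFEB and related factors of lysosomal genes bind in preferred versions. The 250 bases before the Gpnmb start held 1 CANNTG, starting 58 bases before it, and 66.2% of 32851 RefSeq windows of that length hold at least 1. The versions CATGTG (in 12.3% of all windows, reverse strand CACATG included) and CACGTG (6.02%), both of which also match CANNTG, were in none of the 6 members' windows. The AP-1 letters TGACTCA, searched on both strands and present in 4.46% of windows, were in none of the 6 either. GAGGAA, a version of the letters that ETS factors bind, was searched on both strands and is present in 23.3% of windows. It occurred 146 bases before the Marco start and 40 bases before the Trem2 start. Other ETS versions were not searched. These matches describe the letters only.

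**Figure D1:**
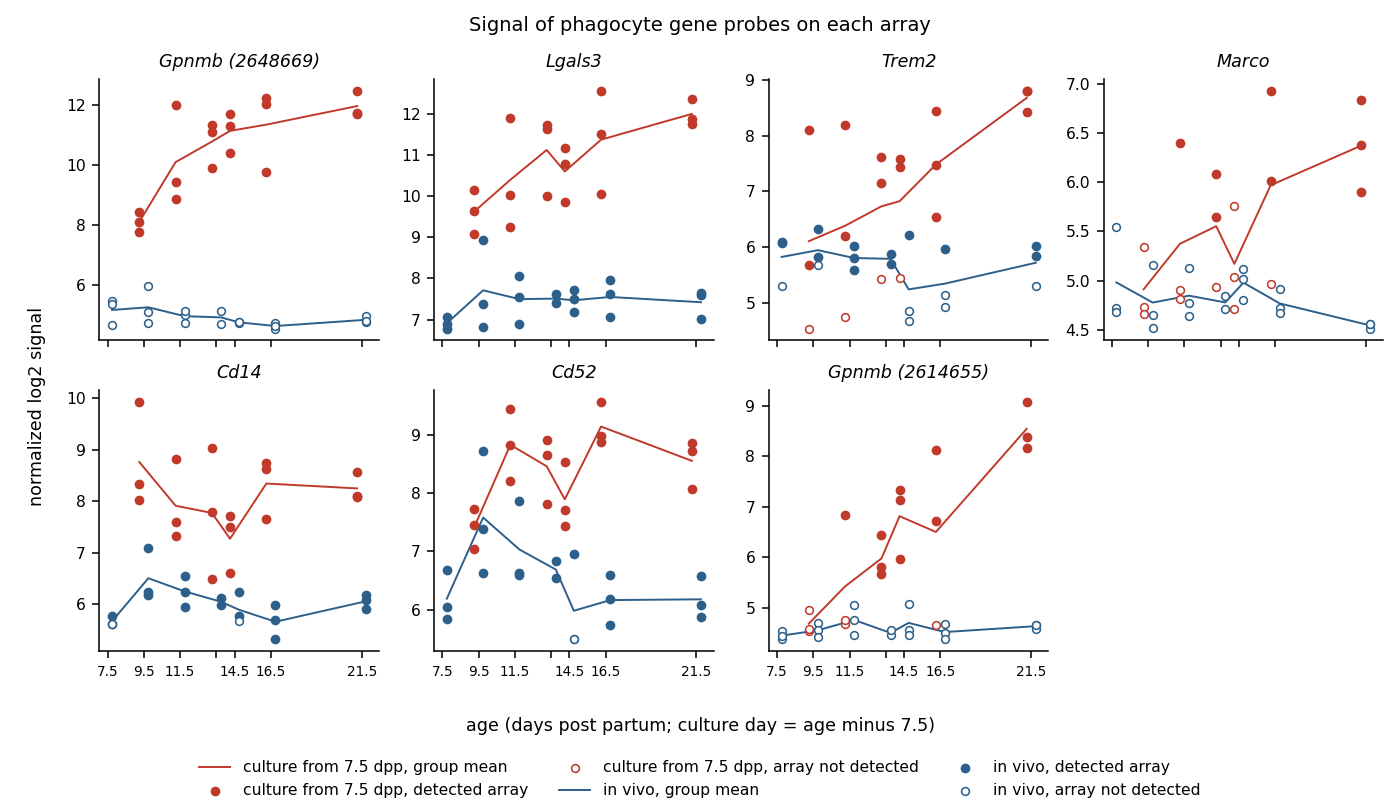
Normalized log2 signal (y axis, own scale per panel) against age in dpp (x axis) for 7 probes of Gpnmb, Lgals3, Trem2, Marco, Cd14 and Cd52; red is culture, blue is in vivo, each point is an array (open where not detected) and lines join group means. Culture Gpnmb (ILMN_2648669) ran between 7.77 and 12.48, with every in vivo array at or below 5.94, and Cd14 was highest on culture day 2.

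Lgals3, the carbohydrate-binding galectin-3 long used as the macrophage antigen Mac-2, was detected on all 38 arrays and was higher in culture at all 6 ages. It lay at 9.09, 9.63 and 10.14 on culture day 2, at 10.78, 11.15 and 9.85 on day 7 and at 11.74, 11.88 and 12.36 on day 14. In vivo it stayed between 6.78 and 8.92, with a median of 7.46 over 20 arrays. The lowest culture array stood above the highest in vivo array.

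Lgals3 rose against in vivo testis of the same age by 1.91 ± 0.57 on day 2 (adjusted p = 0.0146), by 3.13 ± 0.57 on day 7 (adjusted p = 0.000204) and by 4.57 ± 0.57 on day 14 (adjusted p = 5.55e-08). Day 14 stood 2.37 ± 0.57 above day 2 in culture (adjusted p = 0.00149). The day 2 call did not hold without in vivo 9.5 dpp replicate 3 (1.46, adjusted p = 0.0807) or without culture day 2 replicate 3 (1.65, adjusted p = 0.0743). It was also lost when fitted on its own groups (1.91, adjusted p = 0.0975) and with the authors' values (1.24, adjusted p = 0.0558). Among the other galectins fixed for comparison (6 of 8 measured), 1 rose and 1 fell on day 2 and likewise on day 14, near the shares of all genes (4.71% higher and 4.03% lower on day 2, 20% and 15.9% on day 14). Lgals9 rose by 1.26 ± 0.32 on day 2, Lgals7 fell by 1.48 ± 0.44 on day 2 and Lgals8 fell by 1.19 ± 0.14 on day 14.

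Trem2, the lipid-sensing receptor that signals through the adaptor Tyrobp, separated from in vivo testis late. On day 2 it lay at 4.54 (not detected), 5.68 and 8.10, a spread wider than the whole in vivo range of 4.67 to 6.33. On day 14 the 3 culture arrays lay at 8.80, 8.79 and 8.43, above every in vivo array. The difference from in vivo was 0.16 ± 0.72 on day 2 (adjusted p = 0.908) and 1.58 ± 0.72 on day 7 (adjusted p = 0.101).

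Trem2 rose by 2.13 ± 0.72 on day 9 (adjusted p = 0.0338) and by 2.95 ± 0.72 on day 14 (adjusted p = 0.000842). The day 9 call was lost without in vivo 16.5 dpp replicate 2 (2.03, adjusted p = 0.0662) or 3 (1.92, adjusted p = 0.126), and without culture day 9 replicate 1 (2.14, adjusted p = 0.0777) or 2 (1.66, adjusted p = 0.136), while the day 7 difference was called without culture day 7 replicate 3 (2.27, adjusted p = 0.0337). The Trem2 day 9 call was also lost with median centring (2.04, adjusted p = 0.0506) and when fitted on its own groups (2.13, adjusted p = 0.0533). With the authors' values that difference was under 2-fold (0.69). Tyrobp itself was not detected on any day 2 array and was detected on all 3 day 14 arrays.

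Cd14, the co-receptor that hands bacterial lipopolysaccharide to Tlr4, had its highest group mean on the earliest culture day, with arrays that overlapped those of days 4, 6, 9 and 14. It lay at 8.34, 8.02 and 9.94 on culture day 2, at 7.71, 7.51 and 6.61 on day 7 and at 8.58, 8.08 and 8.10 on day 14. In vivo it lay between 5.32 and 7.09, with a median of 5.98. Each culture group stood above the in vivo group of its age without overlap.

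Cd14 rose against in vivo by 2.26 ± 0.47 on day 2 (adjusted p = 0.000802) and by 2.19 ± 0.47 on day 14 (adjusted p = 0.000203). The day 2 call was lost when the contrast was fitted on its own groups only (2.26, adjusted p = 0.0622). With the authors' values the rises on days 4, 6, 7 and 14 were under 2-fold (0.70, 0.73, 0.46 and 0.92). In culture it fell by 1.49 ± 0.47 at day 7 against day 2 (adjusted p = 0.0271), a call that did not hold without culture day 2 replicate 3 (-0.90, adjusted p = 0.229) or culture day 7 replicate 3 (-1.16, adjusted p = 0.152). The rises against in vivo on days 4, 6 and 7 were 1.66, 1.72 and 1.38, with adjusted p of 0.01, 0.0232 and 0.0282. The day 4 rise was not called without culture day 4 replicate 3 (1.21, adjusted p = 0.0876).

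The Cd14 rise on day 6 was not called without either in vivo 13.5 dpp array (1.65 and 1.80, adjusted p = 0.148 and 0.108), nor without culture day 6 replicate 2 (1.72, adjusted p = 0.0569) or 3 (1.09, adjusted p = 0.171). Fitted on its own groups, the day 6 rise was not called either (1.72, adjusted p = 0.13). The day 7 rise was not called without in vivo 14.5 dpp replicate 1 (1.27, adjusted p = 0.0896) or 3 (1.32, adjusted p = 0.0835), without culture day 7 replicate 1 (1.17, adjusted p = 0.115) or 2 (1.26, adjusted p = 0.0915), or with median centring (0.93, adjusted p = 0.153).

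Cd52 had no detectable difference on day 2 and was called higher at every later culture time in the main fit. It lay at 7.73, 7.05 and 7.46 on culture day 2, inside the spread of 7.39, 8.73 and 6.63 at in vivo 9.5 dpp (-0.17 ± 0.45, adjusted p = 0.834). On day 9 it lay at 8.89, 9.58 and 8.98 in culture and at 6.59, 6.17 and 5.73 in vivo at 16.5 dpp, with no overlap.

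The Cd52 rise was 1.80 ± 0.45 on day 4 (adjusted p = 0.00464), 2.99 ± 0.45 on day 9 (adjusted p = 2.29e-05) and 2.38 ± 0.45 on day 14 (adjusted p = 4.9e-05). The day 6 rise of 1.78 ± 0.51 (adjusted p = 0.0157) was not called without in vivo 13.5 dpp replicate 2 (1.92, adjusted p = 0.074) or 3 (1.63, adjusted p = 0.133), or without culture day 6 replicate 2 (1.68, adjusted p = 0.0536) or 3 (1.55, adjusted p = 0.0662). With the authors' values the Cd52 rises on days 4, 6 and 7 were under 2-fold (0.98, 0.89 and 0.72). Of the 18 epididymis genes fixed beside Cd52, 4 were measured. None of them was called at days 2, 4, 6, 7 or 9, when 6.91% to 11.3% of all genes were called. On day 14, 1 was higher and 1 lower, near the shares of all genes (20% and 15.9%). The defining marker Lcn8 was detected on 22 of 38 arrays, including all 3 on each of culture days 2, 4, 6 and 7, and its part in the Cd52 level was not tested.

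Marco, a scavenger receptor of macrophages that take up particles and bacteria, was near background. It was detected on 8 of 18 culture arrays, 3 of them on day 14 at 6.38, 5.91 and 6.84, and the highest in vivo array read 5.54 without being detected. The lower bound was 1.92-fold on day 14 and 1.56-fold on day 9. On culture days 2 and 7 no array was detected.

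The 2 lysozyme genes lie next to each other on mouse chromosome 10, with 0 entries between them in the RefSeq gene table. Their probes may read both genes. The last 130 bases before each start are alike, but they precede the transcript and so do not show what the probes read. They lie at chr10:117292869-117292998 for Lyz1 and chr10:117282273-117282402 for Lyz2, both on the minus strand of GRCm38.p6, with the differing bases in capitals.
Lyz1: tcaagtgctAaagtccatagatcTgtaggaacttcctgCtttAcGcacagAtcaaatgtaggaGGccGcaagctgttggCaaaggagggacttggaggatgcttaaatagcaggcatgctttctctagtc
Lyz2: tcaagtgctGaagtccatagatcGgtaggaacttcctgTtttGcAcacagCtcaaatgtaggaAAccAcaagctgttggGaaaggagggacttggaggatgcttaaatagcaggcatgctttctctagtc

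Of these 130 bases 120 are identical (92.3%), as are 49 of the 50 that follow the start. The probes themselves could not be set against the transcripts, because no probe sequences were used here. Each lysozyme signal below is therefore named by its probe, and how much of it comes from the neighbouring gene was not tested.

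The brightest lysozyme probes fell at the start of culture and rose far above in vivo testis by its end. Lyz1 probe ILMN_2878071 lay at 7.71, 9.01 and 8.77 on culture day 2, and at 12.15, 12.23 and 11.23 at in vivo 9.5 dpp. On day 14 it lay at 14.73, 14.69 and 14.83 in culture, against 11.33, 11.76 and 11.61 at in vivo 21.5 dpp. The groups did not overlap at either age, and the sign of the difference turned: -3.37 ± 0.77 on day 2 (adjusted p = 0.00192) and 3.18 ± 0.77 on day 14 (adjusted p = 0.000748).

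Lyz2 probe ILMN_1252076 followed the same course, at 5.75, 7.30 and 6.75 on culture day 2 and 14.15, 13.88 and 14.32 on day 14. In vivo it lay between 8.99 and 11.35. It fell by 4.07 ± 0.89 on day 2 against 9.5 dpp (adjusted p = 0.0013) and rose by 4.00 ± 0.89 on day 14 against 21.5 dpp (adjusted p = 0.000305).

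The second Lyz2 probe, ILMN_2939681, was not detected on any day 2 array and was at least 3.76-fold lower than at 9.5 dpp (fitted adjusted p = 0.00952). That call was not made without in vivo 9.5 dpp replicate 2 (-2.40, adjusted p = 0.0592). On day 14 the probe lay 3.95 ± 0.79 above in vivo 21.5 dpp (adjusted p = 9.55e-05). The 3 bright lysozyme probes agreed in direction on both days.

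Between those days the lysozyme signals passed through the in vivo range with a wide spread. On day 4 Lyz2 probe ILMN_1252076 lay at 7.55, 9.67 and 13.07 in culture and at 10.66, 10.31 and 10.12 in vivo, and on day 9 at 11.72, 13.32 and 9.06 in culture and at 10.29, 10.03 and 8.99 in vivo. None of the 3 bright probes was called at days 4, 6, 7 or 9 in the main fit. On day 7 Lyz2 ILMN_1252076 lay between 10.69 and 12.46 in culture and between 9.50 and 10.62 in vivo, without overlap. That difference was called when fitted on its own groups (1.77, adjusted p = 0.0144). Without culture day 9 replicate 3, the day 9 difference was called for Lyz1 ILMN_2878071 (2.66, adjusted p = 0.0226) and Lyz2 ILMN_1252076 (2.75, adjusted p = 0.04).

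Within culture, Lyz2 ILMN_1252076 rose by 7.52 ± 0.89 at day 14 against day 2 (adjusted p = 3.22e-07) and Lyz1 ILMN_2878071 by 6.25 ± 0.77 (adjusted p = 5.89e-07). At day 7 against day 2 the rises were 5.18 ± 0.89 for Lyz2 ILMN_1252076 (adjusted p = 0.00016) and 4.14 ± 0.77 for Lyz1 ILMN_2878071 (adjusted p = 0.00037). At day 14 against day 7 they were 2.12 ± 0.77 for Lyz1 ILMN_2878071 (adjusted p = 0.0407), 2.34 ± 0.89 for Lyz2 ILMN_1252076 (adjusted p = 0.049987) and 2.63 ± 0.79 for Lyz2 ILMN_2939681 (adjusted p = 0.0148).

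These last calls rest on few arrays. Leaving out culture day 7 replicate 3 gave 1.54 (adjusted p = 0.202) for Lyz1 ILMN_2878071, 1.80 (adjusted p = 0.205) for Lyz2 ILMN_1252076 and 1.84 (adjusted p = 0.123) for Lyz2 ILMN_2939681. Leaving out culture day 14 replicate 3 gave 2.08 (adjusted p = 0.101), 2.24 (adjusted p = 0.128) and 2.55 (adjusted p = 0.0519) for the same 3 probes. For the 2 brightest probes the call was also lost without day 14 replicate 1 or 2 and without day 7 replicate 2, and for Lyz2 ILMN_1252076 without day 7 replicate 1. With no filter on dim probes they missed the threshold (adjusted p = 0.0503 for Lyz1 ILMN_2878071 and 0.0623 for Lyz2 ILMN_1252076).

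The 3 Lyz1 probes disagreed. Probe ILMN_1247933 was not detected on any in vivo array and lay at 10.01, 8.47 and 9.16 on culture day 14, at least 13.8-fold above in vivo 21.5 dpp. Probe ILMN_2736867 was detected on the 3 day 14 arrays alone, at 8.52, 6.68 and 7.11, at least 4-fold above in vivo 21.5 dpp. Over the 13 group means, Lyz1 ILMN_2878071 followed Lyz2 ILMN_1252076 with Pearson's r of 0.988, a description over means of which 6 are of culture groups.

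**Figure D2:**
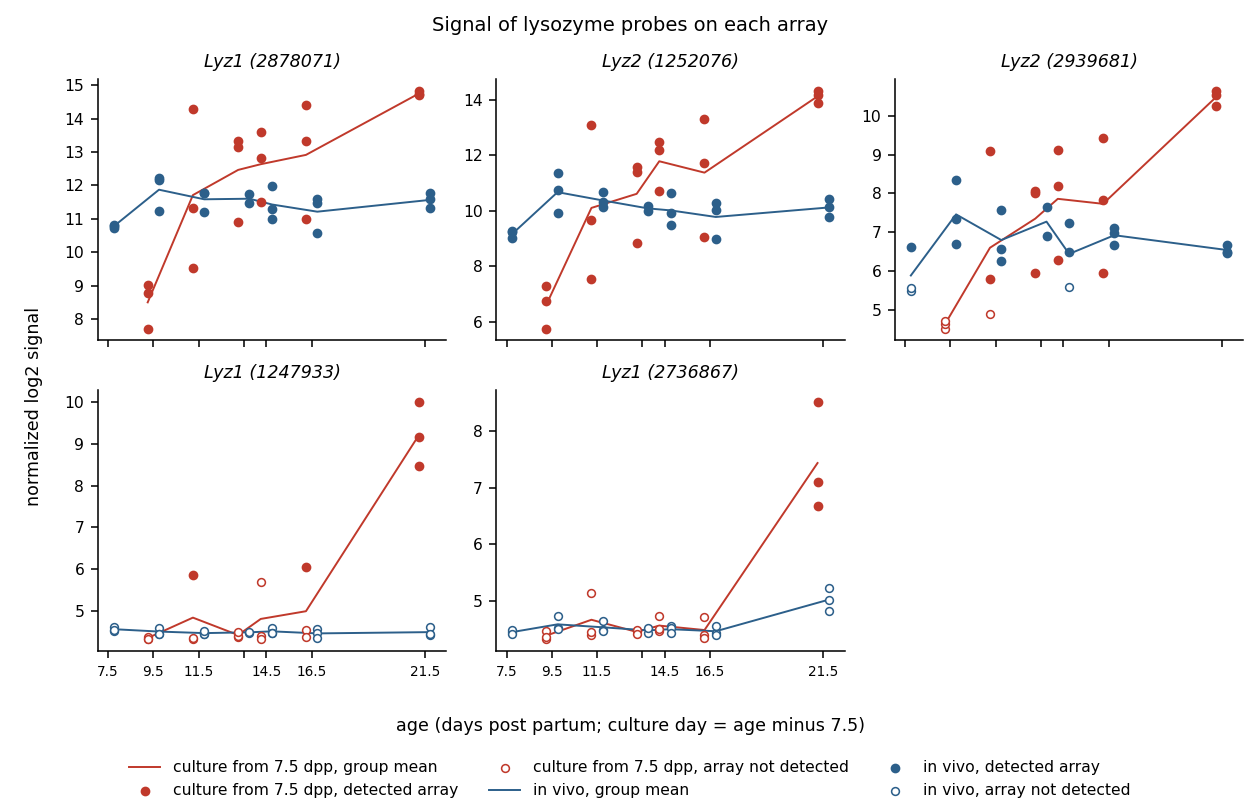
Normalized log2 signal (y axis, own scale per panel) of the 5 lysozyme probes against age in dpp (x axis); red is culture, blue is in vivo, each point is an array (open where not detected) and lines join group means. The 3 probes of the upper row fell below in vivo on culture day 2 and stood above it on day 14; the 2 Lyz1 probes of the lower row left background on day 14, apart from 2 detected arrays of ILMN_1247933 on days 4 and 9.

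Counted over the 7 probes detected in both kinds of tissue, the number called higher in culture than in vivo at the same age was 2 on day 2, 3 on each of days 4, 6 and 7, 4 on day 9 and 7 on day 14. Over all 23665 probes the share called higher was 4.65%, 4.61%, 5.51%, 5%, 4.69% and 17.6% at those times. Members were called lower on day 2 alone, 3 of 7 and all of them lysozyme probes. The share of all probes called lower was 4.23%, 5.13%, 2.77%, 5.68%, 3.81% and 15.4% at the 6 times. The median difference of the 7 probes was -0.17 on day 2, 1.58 on day 7 and 3.18 on day 14, beside medians of 0.00, -0.01 and 0.23 over all probes. The day 14 count stands against the largest background of the 6, with 33% of all probes called in either direction. Because the genes were chosen with earlier results of these data known, the counts beside these shares are description only.

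**Figure D3:**
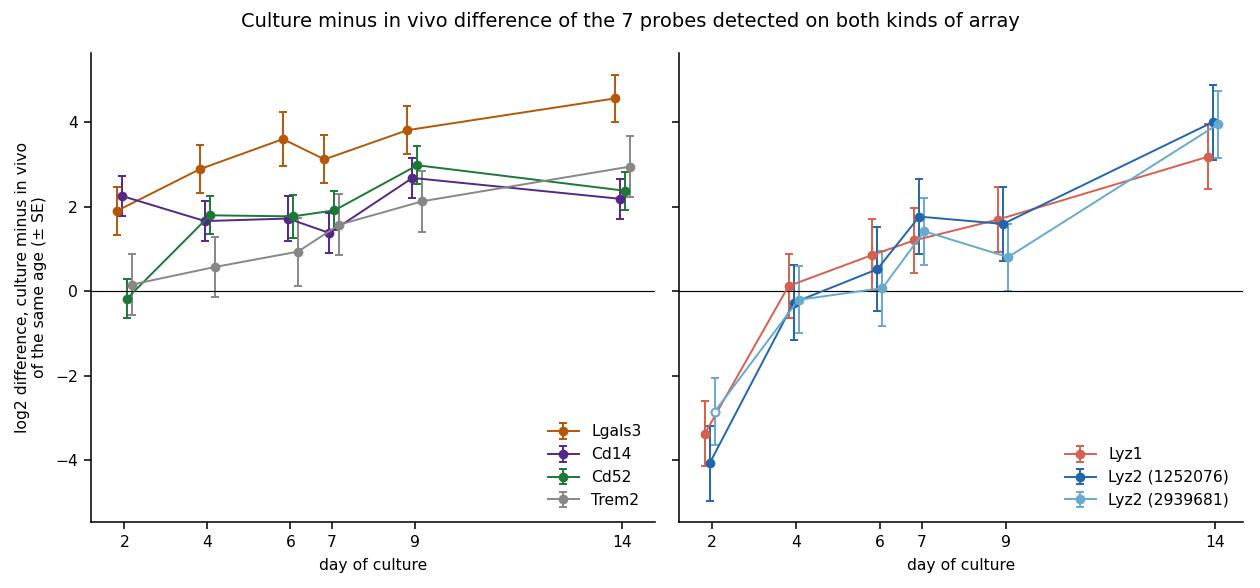
Log2 difference of culture minus in vivo of the same age (y axis, ± SE of the fit) against day of culture (x axis) for the 7 probes detected in both kinds of tissue. Lgals3 and Cd14 were above 0 at all 6 times, and the lysozyme probes detected on day 2 stood at -4.07 and -3.37 on that day; the open point, where a group was below detection, has no size, and all 3 lysozyme probes lay between 3.18 and 4.00 on day 14.

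Against the 7.5 dpp tissue from which culture began, using the same culture arrays, Lgals3 and Cd14 rose at all 6 times, Cd52 at 5 (all but day 2), and Trem2 on day 14. Of the 7 probes, 2 rose and 2 fell on day 2 (4.29% and 4.32% of all probes). The number that rose was 3 on day 4 (5.54%), 3 on day 6 (4.35%), 4 on day 7 (3.94%), 4 on day 9 (5.68%) and 7 on day 14 (7.7%), the fourth on days 7 and 9 being Lyz2 ILMN_1252076 and Lyz1 ILMN_2878071. The 2 that fell on day 2 were Lyz1 ILMN_2878071 (-2.28 ± 0.77, adjusted p = 0.034) and Lyz2 ILMN_1252076 (-2.56 ± 0.89, adjusted p = 0.0393). Both falls were lost without any 1 of the 3 arrays of 7.5 dpp or without culture day 2 replicate 1 or 3, with adjusted p between 0.0614 and 0.144. The rises of days 7 and 9 were less stable. The day 7 rise of Cd14 was lost with median centring (1.16, adjusted p = 0.0681), with no background correction (0.92, adjusted p = 0.06), with the authors' values (0.51, adjusted p = 0.161) and without culture day 7 replicate 1 (1.39, adjusted p = 0.0658) or 2 (1.49, adjusted p = 0.0527). That of Lyz2 ILMN_1252076 was lost with median centring (2.17, adjusted p = 0.0531), without any 1 of the 7.5 dpp arrays, and without culture day 7 replicate 1 (2.28, adjusted p = 0.116) or 2 (2.41, adjusted p = 0.0976), and that of Cd52 without culture day 7 replicate 2 (1.39, adjusted p = 0.0544). The day 9 rise of Lyz1 ILMN_2878071 was lost when fitted on its own groups (2.14, adjusted p = 0.0713), with no filter on dim probes (adjusted p = 0.052), without any 1 of the 7.5 dpp arrays, and without culture day 9 replicate 1 (1.93, adjusted p = 0.127) or 2 (1.38, adjusted p = 0.217). With the authors' values the rises against 7.5 dpp were under 2-fold for Cd14 on days 4 and 6 (0.84 and 0.82) and for Cd52 on day 7 (0.69). Cd52 was called on day 2 with median centring (1.25, adjusted p = 0.0353) and when fitted on its own groups (1.22, adjusted p = 0.0276).

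On day 14 Lgals3 stood 5.08 ± 0.57 above the starting tissue (adjusted p = 1.09e-07) and Trem2 2.85 ± 0.72 (adjusted p = 0.00292).

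No change was called during development in vivo in the main fit. None of the 7 probes was called at any later in vivo age against 7.5 dpp by limma, and 1 of those 42 probe-by-age comparisons had an unadjusted p below 0.05. The share of all probes called was 2.01% at 9.5 dpp, 3.94% at 11.5 dpp, 7.73% at 13.5 dpp, 12.9% at 14.5 dpp, 12.6% at 16.5 dpp and 45.8% at 21.5 dpp. The differences of the 7 probes ran between -0.58 and 1.58. The fit takes 1 spread per probe from all groups, culture included, which limits what it can call in vivo. For Lyz2 ILMN_1252076 the median range within a group was 2.25 in culture and 0.65 in vivo. Fitted on its own groups, that probe was called at 11.5 dpp (1.20, adjusted p = 0.0208). Cd52 was called at 9.5 dpp when in vivo 9.5 dpp replicate 3 was left out (1.87, adjusted p = 0.0146). Replicate 2 of that age, which also had the lowest share of detected probes (35.6%), gave the highest in vivo reading of Lgals3 (8.92), Cd14 (7.09), Cd52 (8.73) and Lyz2 ILMN_1252076 (11.35).

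Within culture, 3 of the 7 probes rose and 1 (Cd14) fell at day 7 against day 2, beside 2.42% and 4.13% of all probes, and 3 rose at day 14 against day 7 (5.9%). Trem2 was also called at day 14 against day 7 with no background correction (1.31, adjusted p = 0.0186), with an offset of 50 (1.52, adjusted p = 0.0268) and on its own groups (1.85, adjusted p = 0.0207), and Lgals3 with the authors' values (1.36, adjusted p = 0.0345) and on its own groups (1.40, adjusted p = 0.00877). At day 14 against day 2, 6 of 7 rose (9.15%), all but Cd14 (-0.51 ± 0.47, adjusted p = 0.412). The Cd52 rise of 1.15 ± 0.45 (adjusted p = 0.0463) was lost without any 1 of 5 of the 6 arrays compared, with values between 0.97 and 1.31 and adjusted p between 0.0525 and 0.15. The Trem2 rise of 2.57 ± 0.72 (adjusted p = 0.00571) was lost without culture day 2 replicate 1 (1.78, adjusted p = 0.0711).

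Arrays of the same culture time differed in the 6 probes that were detected on all 18 culture arrays (Gpnmb ILMN_2648669, Lgals3, Cd14, Cd52, Lyz1 ILMN_2878071 and Lyz2 ILMN_1252076). On day 4, replicate 3 read highest for 6 of 6, and its median deviation from the group mean was 1.71. On day 9, replicate 2 read highest for 6 of 6 and replicate 3 lowest for 4, with a median deviation of -1.45 in replicate 3. Replicate 1 read lowest for 6 of 6 on day 6, and replicate 3 lowest for 6 of 6 on day 7. On day 14 the median deviations lay between -0.14 and 0.19.

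Genes that mark macrophages in general deviated with the same sign as the median of those 6 probes on 13 of the 18 culture arrays. The signs were opposite on every day 2 array and on day 14 replicates 1 and 3. Deviations are taken from the group's own mean, so the arrays of a group are not separate agreements. The macrophage list held 20 genes, among them the receptor Csf1r and the complement genes C1qa to C1qc, and 14 were measured. Their summed log2 level was 105 on day 4 replicate 3 against 82.6 and 88.0 on the other 2 arrays, and 83.0 on day 9 replicate 3 against 97.8 and 111. On day 6 it was 79.0 in replicate 1 against 97.6 and 97.0, and on day 7 it was 78.0 in replicate 3 against 101 and 94.0. In whole tissue, fewer cells of a type and less RNA per cell cannot be told apart, and the part of either in the members' values was not tested.

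**Figure D4:**
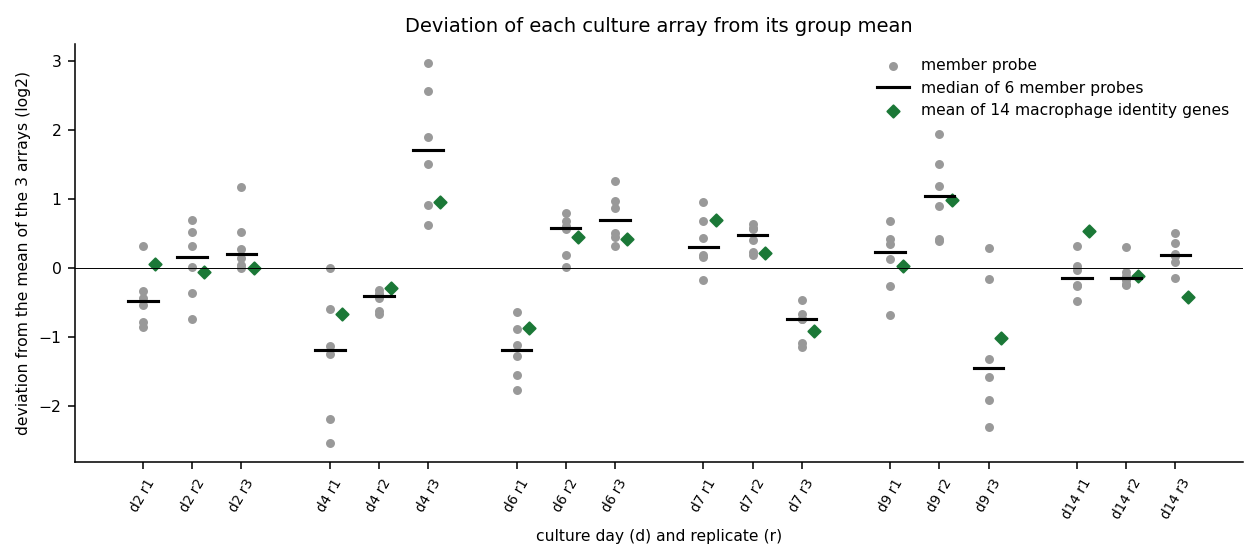
Deviation of each culture array from the mean of its 3 arrays (y axis, log2) by culture day and replicate (x axis); grey points are the 6 member probes detected on every culture array, black bars their median and green diamonds the mean of 14 macrophage identity genes. Both measures were high on day 4 replicate 3 (1.71 and 0.96) and low on day 9 replicate 3 (-1.45 and -1.02).

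The same macrophage list was low as a whole on day 2, when Gpnmb, Lgals3 and Cd14 were already high. Its summed level was 80.0 to 81.6 on culture day 2 and 98.2 to 109 at in vivo 9.5 dpp, and 5 of 14 genes were detected on each culture array, against 10 to 12 in vivo. By count, 11 fell and 1 rose on day 2 (4.03% and 4.71% of all genes at 1 probe per gene), with a median of -1.97. The complement genes C1qb and C1qc, made by tissue macrophages, were at least 11.8-fold and 15.1-fold lower, and the mannose receptor gene Mrc1 fell by 2.72 ± 0.33 (adjusted p = 8.45e-07).

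Defining markers gave the same order. Csf1r was detected on 1 of 3 day 2 arrays, and Adgre1 (F4/80) and Tyrobp on 0 of 3, so Gpnmb, Lgals3 and Cd14 were detected in cultures where most macrophage identity genes were not. Adgre1 stayed below detection on all arrays of days 6 and 7, and Csf1r and Adgre1 were detected on all 3 arrays of day 14. On day 14, 4 of the list rose and 1 fell against 21.5 dpp (20% and 15.9% of all genes), with a median of 0.55 and a summed level of 106 to 119 in culture and 103 to 105 in vivo. Tyrobp rose by 2.02 ± 0.57, the protease gene Ctss by 1.64 ± 0.22, and Aif1, which encodes the macrophage protein Iba1, fell by 1.99 ± 0.54.

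Other cell types that carry members were checked through their own lists. Gpnmb is also a gene of pigment cells. Of 5 measured melanocyte genes none was called higher than in vivo of the same age at any of the 6 times (3.96% to 20% of all genes higher). Tyr was detected on 0 of 38 arrays, and Pmel was detected on all 38. Pmel averaged 6.24 at in vivo 7.5 dpp and 8.30 at 21.5 dpp, 7.28 to 7.60 on culture days 2 to 9 and 6.83 on day 14. The part of pigment cells in the Gpnmb level was not tested. Of neutrophil genes 4 of 14 were measured, and none was called on day 2, 2 rose on day 7 (5.55% of all genes higher), and 2 rose and 1 fell on day 14 (20% and 15.9%). The neutrophil gene S100a8 was detected on 14 of 18 culture arrays and on 3 of 20 in vivo arrays, and on day 7 replicate 2 it read 9.74 against 6.33 and 5.22 on the other arrays. Its part in the lysozyme, Cd14 and Cd52 levels was not tested.

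Genes that work with the members in lipid-laden macrophages, such as Lpl, Lipa and Apoe, were counted the same way. Of 17 measured, 2 rose and 1 fell on day 2 (4.71% of all genes higher and 4.03% lower), 8 rose on day 7 (5.55% and 5.7%) and 12 rose and 1 fell on day 14 (20% and 15.9%), with medians of 0.56, 0.87 and 1.39. Lpl, the lipoprotein lipase gene, lay at 11.51 on culture day 14 and 7.14 at in vivo 21.5 dpp, a rise of 4.36 ± 0.52 (adjusted p = 2.62e-08), with 12.06 in the starting tissue. The tetraspanin gene Cd9 rose by 2.51 ± 0.27 and the lysosomal lipase gene Lipa by 2.34 ± 0.24. Against the 7.5 dpp tissue 6 of the 17 rose and 1 fell on day 14 (8.58% of all genes higher and 7.75% lower). In vivo 8 of the 17 fell at 21.5 dpp against 7.5 dpp (28.7% of all genes lower).

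Of 19 measured lysosomal genes known as targets of TFEB and MITF, 0 were called on day 2 (4.71% of all genes higher) and 11 rose on day 14 (20%), with medians of 0.23 and 1.03. Their mean level was 10.24 on day 2 and 10.28 on day 14 of culture, and in vivo it was 10.02 at 9.5 dpp and 9.23 at 21.5 dpp. Ctsk, the cathepsin K gene, rose by 3.74 ± 0.97 on day 14, Ctsz by 2.28 ± 0.25 and Psap by 1.70 ± 0.19. Against the starting tissue 0 of 19 were called by limma on day 14 (8.58% of all genes higher and 7.75% lower). Lgals3, by contrast, stood 5.08 above the starting tissue on day 14 and 0.51 above it in vivo at 21.5 dpp (adjusted p = 0.436).

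Of 14 measured genes around Cd14 in lipopolysaccharide sensing, 6 rose and 1 fell on day 2 (4.71% of all genes higher and 4.03% lower), 1 rose and 1 fell on day 7 (5.55% and 5.7%), and 7 rose and 1 fell on day 14 (20% and 15.9%), with medians of 0.70, -0.01 and 1.01. Lbp, the secreted lipopolysaccharide-binding protein gene, rose by 2.15 ± 0.38 on day 2 (adjusted p = 0.000125) and Tlr2 by 1.89 ± 0.27 (adjusted p = 9.78e-06). Ly86, which pairs with the B-cell and macrophage receptor Cd180, was at least 2.58-fold lower. On day 14 Tlr2 rose by 2.78 ± 0.27, the NF-kB inhibitor gene Nfkbia by 1.75 ± 0.19 and the Tlr4 partner Ly96 by 1.72 ± 0.33.

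Beside Marco, 10 other scavenger receptor genes were measured of 15. On day 2, 3 rose and 1 fell (4.71% of all genes higher and 4.03% lower), and on day 14, 3 rose and 1 fell (20% and 15.9%), with medians of 0.05 and 0.41. Scara3 rose by 1.22 ± 0.19 on day 2, and Stab1 rose by 1.44 ± 0.18 and Msr1 fell by 1.59 ± 0.29 on day 14. Of 17 measured genes for the uptake of dying cells, 4 rose and 1 fell on day 2 and 11 rose on day 14, beside the same shares, with medians of 0.51 and 1.16. The integrin gene Itgav rose by 2.02 ± 0.37 and the receptor gene Axl by 1.74 ± 0.17 on day 14, and Tyro3 fell by 1.35 ± 0.27 on day 2 and rose by 1.69 ± 0.27 on day 14. In vivo, 8 of these 17 fell at 21.5 dpp against 7.5 dpp (28.7% of all genes lower).

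**Figure D5:**
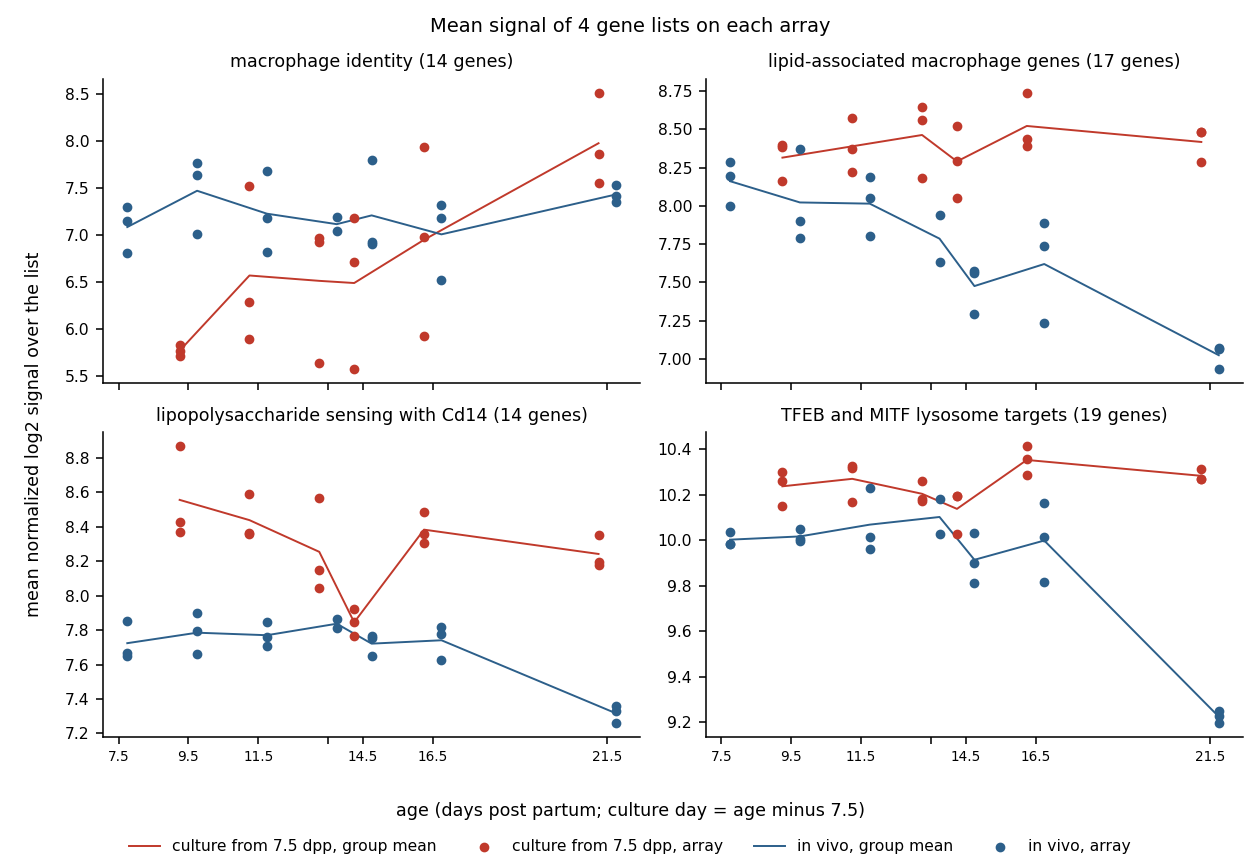
Mean normalized log2 signal over each gene list (y axis, own scale per panel) against age in dpp (x axis); red is culture, blue is in vivo, each point is an array and lines join group means. The macrophage identity mean was 5.77 on culture day 2 and 7.97 on day 14, and the TFEB and MITF targets stayed between 10.14 and 10.35 in culture and read 9.23 at in vivo 21.5 dpp.

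Lists of other cell classes were counted beside shares of all genes of 4.71% higher and 4.03% lower on day 2 and of 20% and 15.9% on day 14, and single calls in a short list are near those shares. Of 8 endothelial genes 5 rose on day 2 and 1 on day 14, with Pecam1 up by 1.55 ± 0.31 on day 2. Of 7 Leydig cell genes 3 fell on day 2 and 2 on day 14, with Cyp17a1 down by 4.95 ± 0.87 on day 2. Of 14 Sertoli cell genes 2 were lower than in vivo on day 2 and 6 higher on day 14. Of 11 peritubular and fibroblast genes 0 were called on day 2 and 8 were higher than in vivo on day 14. The peritubular mean was 10.12 on culture day 2 and 9.65 on day 14. In vivo it was 10.21 at 9.5 dpp and 8.21 at 21.5 dpp. The Sertoli mean was 10.25 and 10.42 in culture and 10.57 and 9.24 in vivo at the same ages. Of 12 germ cell genes 2 fell on day 2, and 1 rose and 4 fell on day 14. Of 5 monocyte and dendritic cell genes 2 rose and 1 fell on day 2 and 2 rose on day 14. Of 5 lymphocyte genes, whose T-cell marker Cd3e was detected on 30 of 38 arrays, 0 were called on day 2, and 1 rose and 1 fell on day 14.

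By Pearson's r over the 13 group means, a description over means of which 6 are of culture groups, the genes most like Gpnmb were Lgals3 (0.986), the survival gene Bcl2a1d (0.978), the Fc receptor gene Fcgr4 (0.973), the chemokine gene Ccl9 (0.967), the phagosomal metal transporter gene Slc11a1 (0.964), Milr1 (0.962), Bcl2a1b (0.952) and the lectin gene Clec4d (0.951). Bcl2a1 copies are near-identical and their probes may share signal. Lgals3 was most like Bcl2a1d (0.987), Gpnmb and Slc11a1 (0.974), and Trem2 most like Ncf4 (0.970), a subunit of the phagocyte oxidase. Cd14 was most like the lysosomal transporter gene Slc15a3 (0.985), the acute-phase gene Saa3 (0.945) and Fxyd5 (0.941), and Saa3 averaged 14.05 on culture day 2 and 8.97 on day 14. Marco was most like Napsa (0.954), Serpinb12 (0.947) and Lilr4b (0.939). Cd52 was most like Bcl2a1b (0.942), Lcp1 (0.928) and Fcgr4 (0.927). Beside the other lysozyme, the genes most like Lyz1 ILMN_2878071 and Lyz2 ILMN_1252076 were Cyth4 (0.902 and 0.923) and Ptpn6 (0.892 and 0.900), which act in signalling of blood cells.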

How the data were processed

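Signal and detection columns came from the authors' deposited non-normalized table, which holds intensity values not yet normalized and a detection p-value per probe and array, per the file headers. The authors' own normalized log2 values, deposited separately and made with lumi per the submitters' processing notes, served only as an alternative; their background treatment is not given in the sources used here. Of the signal columns, 1 matched no sample name and was not used, which left 38 arrays and 2 at in vivo 13.5 dpp.

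Signals were background-corrected and quantile normalized with neqc of limma 3.58.1 (R 4.3.3; offset 16, negative controls inferred from the detection p). Probes with detection p below 0.01 on 3 or more arrays entered 1 limma fit with a mean per group and trended eBayes (25 residual degrees of freedom). p-values were Benjamini-Hochberg adjusted over all 23665 probes within each contrast, with calls at adjusted p below 0.05 and 2-fold. A lower bound sets the brighter group's mean against, per array, the higher of the dimmest detected probe and the probe's own value. The cultures against age-matched and against starting tissue share culture arrays, and the comparisons with 7.5 dpp share those 3 arrays. Of the probes, 34885 had 1 gene symbol, 18 several and 10378 none. The number of arrays limits the precision.

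The members and gene lists were chosen with earlier results of these data known. The text names all member probes, up to 3 called genes of largest difference per list on days 2 and 14, defining markers and the 8 (Gpnmb) or 3 (others) most similar genes. List counts take 1 probe per gene, 12518 genes in all. The fit was tested on simulated data. Alternatives were other background and scaling settings, filters, probe choice, fits on the compared groups alone, the authors' values, a replicate block and leaving out each array.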

Additional observations from a re-analysis of the deposited data

Results flagged for a closer look

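For 6 of the 7 probes detected in both kinds of tissue, the culture minus in vivo difference was larger at 21.5 dpp than at 9.5 dpp by the test of that change itself, beside 19.3% of all probes. The change (log2) was 2.66 for Lgals3, 2.79 for Trem2, 2.55 for Cd52, 6.56 for Lyz1 ILMN_2878071 and 8.07 for Lyz2 ILMN_1252076. Lyz2 ILMN_2939681 was called too, with no size given because it was below detection on culture day 2. Cd14 was the exception, with -0.07 ± 0.66 (limma, adjusted p = 0.944). For Cd52 both sides moved. Its mean was 7.41 on culture day 2 and 8.56 on day 14, and 7.58 in vivo at 9.5 dpp and 6.18 at 21.5 dpp. For Trem2 the call was lost without in vivo 21.5 dpp replicate 3 (2.58, adjusted p = 0.0566), in vivo 9.5 dpp replicate 1 (2.60, adjusted p = 0.0531), culture day 2 replicate 1 (2.01, adjusted p = 0.107) or culture day 2 replicate 2 (2.58, adjusted p = 0.056).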

How the results depend on the processing

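Over the 7 probes detected in both kinds of tissue, culture against in vivo of the same age gave 25 calls, culture against the starting tissue 25, later in vivo ages against 7.5 dpp 0, later against earlier culture times 13 and the change of the difference with age 6. Over all probes the calls came to 13.2%, 10.5%, 14.2%, 11.1% and 35.4% of comparisons. Alternatives on the same probes gave 15 to 25, 20 to 28, 0 to 1, 10 to 17 and 6 calls. The lowest same-age count of 15 came with the authors' own log2 values. Leaving out 1 array at a time gave 23 to 27, 21 to 27, 0 to 1, 9 to 12 and 5 to 6, with comparisons that the array did not enter kept.

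Over all 12 probes the counts were 38, 38, 0, 24 and 11, and the gene lists gave 256 calls beside 13.2% of all gene-by-time comparisons at 1 probe per gene. Nothing is read from the counts against in vivo over 12 probes, since 5 of them passed the rule through culture arrays alone. With the authors' own log2 values, the same-age comparison gave 22 calls and the lists 131. With 1 probe per gene, the culture-time comparisons gave 14 and the change with age 7, since fewer probes were counted. For the later in vivo ages, 1 call appeared when each contrast was fitted on its own groups (Lyz2 ILMN_1252076 at 11.5 dpp, 1.20, adjusted p = 0.0208) and 1 with no fold threshold (Lyz1 ILMN_2736867 at 21.5 dpp, 0.57, adjusted p = 0.0401). The cause was not tested. Leaving out 1 array at a time gave 36 to 41, 33 to 42, 0 to 1, 18 to 22 and 10 to 11 calls over the 12 probes and 244 to 263 over the lists. No member difference called under the main or an alternative setting turned its direction. For the lists only the counts of calls were followed, not the direction.

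Replicate numbers did not pair the samples: of 17 same-numbered pairs, 1 had a correlation of deviations over 0.1 (range -0.469 to 0.129), and 3 samples correlated best with their own number. With the replicate block, the counts over 12 probes were 38, 38, 0, 24 and 11, and the lists gave 260. Median centring in place of quantile normalization put the median of all probes at 0.45 for culture day 14 against day 7 (quantile -0.02), at -0.33 for day 7 against day 2 (quantile 0.00) and at 0.34 for day 14 against 21.5 dpp (quantile 0.23). Under it, the day 14 against day 7 difference was called for Gpnmb ILMN_2648669 (1.45, adjusted p = 0.0304), Lgals3 (2.02), Trem2 (2.39), Cd14 (1.63) and Cd52 (1.32). Precision is limited by 2 or 3 arrays per group and, for Gpnmb, Marco and 2 Lyz1 probes, by in vivo signals not above background.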

Other observations

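Replicate 1 of the in vivo 13.5 dpp group was used only through the authors' deposited normalized values. On that log2 scale, Gpnmb probe ILMN_2648669 read 7.42 on replicate 1, 7.42 on replicate 2 and 7.50 on replicate 3.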
